A study of Mus musculus with 30 samples.

Results

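CD4+ T cells that lacked CD25 were compared between mesenteric lymph nodes, which drain the gut, and peripheral lymph nodes, which drain skin and other body surfaces. The comparison used the 3 arrays titled as mesenteric CD4+CD25- cells and the 3 titled as peripheral CD4+CD25- cells, 6 of the 30 arrays of the study. The study measured RNA of sorted CD4+ T cells from pancreas and lymph nodes on 1-colour Affymetrix mouse arrays. Its title concerns regulatory against effector T cells of the pancreas, and the lymph node arrays form a separate set of 14. The other 8 lymph node arrays were CD4+CD25+ cells, 5 from mesenteric and 3 from peripheral nodes, and they served here to see whether a site difference was shared.

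All groups came from NOD mice, a strain that develops autoimmune diabetes, and all carried the BDC2.5 T cell receptor transgene, which directs T cells against an antigen of pancreatic islet cells. The mice were 4 weeks old and no treatment was named for the lymph node samples. Cells were separated by flow cytometric sorting, and the label of mesenteric CD25- replicate 1 named Trizol extraction and 2 rounds of amplification. CD25, the alpha chain of the interleukin-2 receptor encoded by Il2ra, was used in the sort. Il2ra read 4.08, 4.10 and 4.11 (log2 intensity) in the mesenteric and 4.29, 4.00 and 3.99 in the peripheral CD25- replicates, below the 5.32 to 6.23 of the CD25+ arrays. The labels do not name the peripheral nodes taken. The tissue entry of all peripheral arrays named mesenteric nodes, against their titles and source names, and the titles were followed. Mesenteric CD25+ replicate 2 had a source name of CD25- cells against its title, and its Il2ra level of 5.50 lay among the CD25+ arrays. The labels do not say whether replicates were separate mice, and the spread behind the p-values may therefore be technical.

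As background, type I interferons signal through a receptor on nearly all cells and switch on a set of antiviral genes through the response element that the factor ISGF3 binds. Signals through the T cell receptor switch on other genes, among them the Nr4a and Egr transcription factors and Irf4, whose level is known to follow the strength of receptor signalling. Lymph nodes differ in the microbial and dietary material they receive and in the cells that present it.

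All values are log2 intensities of the deposited, RMA-normalised data, and a difference is mesenteric minus peripheral. Adjusted p-values come from limma with Benjamini-Hochberg adjustment over 12422 probe sets, with a threshold of 0.05. Array medians were 25.3 to 26.3 intensity units in the 6 arrays, and the median difference over all 8251 genes was -0.01. No array was a copy of another (highest r with another array 0.993 over all probe sets). The log2 ratio of 3' to 5' actin probe sets, which follows RNA quality, was 2.63 ± 0.05 in mesenteric and 2.54 ± 0.20 in peripheral arrays (SD, n = 3 each), a difference that an exact two-sided permutation test did not separate from the spread (p = 0.8, smallest possible 0.1). That ratio for Gapdh was 3.16 ± 0.36 and 3.50 ± 0.34 (exact permutation p = 0.3).

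Of the 12422 probe sets, 56 (0.451%) passed the test, 26 higher (0.209%) and 30 lower (0.242%) in mesenteric nodes, and 37 of them differed by more than 2-fold. At unadjusted p under 0.05 the count was 522 (4.2%). With each gene represented by its brightest probe set, 42 of 8251 genes (0.509%) passed. Mesenteric CD25- cells were higher in 20 genes (0.242%), led by antiviral genes of the interferon response. They were lower in 22 genes (0.267%), led by Myb, Ctla4, Eomes, Irf4 and Irf8, regulators of T cell activation and differentiation. For all 42 genes the 3 mesenteric values lay apart from the 3 peripheral ones. Groups that do not overlap were found in 393 genes that were higher (4.76%) and 462 that were lower (5.6%), so the 42 genes are a small part of those with separate groups. In such bulk samples, fewer cells of a type and less RNA per cell cannot be told apart.

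**Figure D1:**
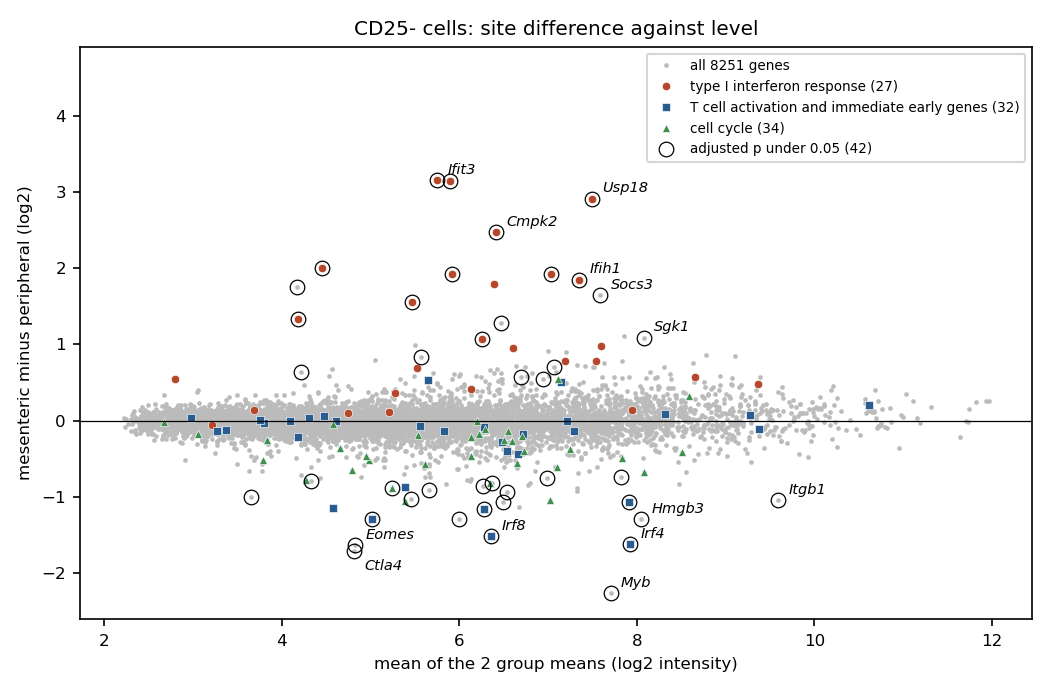
Difference between mesenteric and peripheral CD25- cells (log2, vertical) against the mean of both group means (log2 intensity, horizontal), 1 point per gene for 8251 genes; coloured points are members of 3 gene lists and open circles the 42 genes past the test. The interferon genes reach 3.16 above 0, and Myb lies lowest at -2.26.

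The interferon effector genes gave the widest site differences. Ifit3 (probe set 93956_at), an antiviral protein with tetratricopeptide repeats, read 7.74, 6.63 and 7.63 in mesenteric replicates 1 to 3 and 4.34, 3.81 and 4.37 in peripheral replicates 1 to 3. Every mesenteric array stood above every peripheral array, by more than the spread inside either group. The difference was 3.16 (SE 0.34, adjusted p = 0.000406), or 8.92-fold. Its relative Ifit1, which binds foreign RNA ends, read 7.70, 7.25 and 7.44 against 4.35, 3.99 and 4.61, a difference of 3.15 (SE 0.30, adjusted p = 0.000154) or 8.86-fold. Ifit2, the third family member on the array, read 6.76, 5.61 and 6.37 against 4.74, 4.52 and 4.83. It was higher by 1.55 (SE 0.28, adjusted p = 0.0218), and its mesenteric replicate 2 lay closest to the peripheral arrays.

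Other antiviral effectors passed the test with smaller differences, and some did not pass. Mx1, a GTPase that blocks virus replication, read 5.87, 5.01 and 5.50 against 3.35, 3.37 and 3.65, a difference of 2.00 (SE 0.30, adjusted p = 0.00504). Mx2, its relative, was higher by 1.34 (SE 0.20, adjusted p = 0.00504). Isg15, a ubiquitin-like protein attached to other proteins, read 8.25, 7.65 and 8.07 against 5.84, 6.10 and 6.27, a difference of 1.92 (SE 0.29, adjusted p = 0.00527). Rsad2, or viperin, an enzyme that makes a chain-terminating nucleotide, read 7.23, 6.64 and 6.79 against 4.55, 5.31 and 4.999, a difference of 1.93 (SE 0.31, adjusted p = 0.00825). In all 4 genes the groups were separate, and mesenteric replicate 1 or 3 was the brightest array. Cmpk2, a mitochondrial nucleotide kinase encoded next to Rsad2, read 8.01, 7.63 and 7.32 against 5.27, 5.06 and 5.21, a difference of 2.47 (SE 0.24, adjusted p = 0.000154). A dimmer probe set of Cmpk2 differed by 0.65 (adjusted p = 0.205) and did not pass. Lgals3bp, a secreted glycoprotein, was higher by 1.07 (SE 0.18, adjusted p = 0.0106). The synthetase gene Oas1g differed by -0.06, the RNA-activated kinase Eif2ak2 by 0.15 and the RNA editing enzyme Adar by 0.10, all with an adjusted p of 1. Mx1 was dim in peripheral arrays and Mx2 at both sites, with means of 4.85 in mesenteric and 3.51 in peripheral arrays. With all values below intensity 32 raised to 32, the differences of Mx1 and Mx2 were 0.46 and 0.01 and neither passed.

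A sensor and a brake of the pathway were higher as well. Ifih1, also called MDA5, detects long double-stranded RNA in the cytosol. It read 8.49, 8.03 and 8.32 against 6.45, 6.21 and 6.62, a difference of 1.85 (SE 0.16, adjusted p = 0.00011). By brightest probe sets it had the lowest p among the genes. Usp18 removes Isg15 from proteins and blocks the interferon receptor. It read 9.002, 8.80 and 9.05 against 5.94, 5.76 and 6.42, a difference of 2.91 (SE 0.36, adjusted p = 0.00136) or 7.52-fold, with a narrow mesenteric group. Socs3, a feedback inhibitor of cytokine receptors that signal through Stat3, read 8.49, 8.58 and 8.16 against 6.80, 6.86 and 6.64. Its difference was 1.65 (SE 0.18, adjusted p = 0.000642) and that of its other probe set 0.88 (adjusted p = 0.0305). Socs1, its relative in the type I interferon list, differed by 0.11 and did not pass.

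Transcription factors of the pathway gave smaller values. Irf9, the DNA-binding part of ISGF3, differed by 0.58 (adjusted p = 0.123), and Irf7, which amplifies interferon production, by 0.69 (adjusted p = 0.123). Irf1 differed by 0.14, and the receptor chains Ifnar1 and Ifnar2 by -0.04 and -0.33. None of these 5 passed the test, which does not show that they were equal. Isg20, an antiviral exonuclease, read 7.70, 6.93 and 7.23 against 5.33, 5.77 and 5.36. Its groups were separate, and it lay just outside the threshold with a difference of 1.79 (SE 0.36, adjusted p = 0.0506).

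Of 27 measured genes of the type I interferon list, 11 were higher and 0 lower past the test, and 16 did not pass. Without adjustment 19 were higher at p under 0.05 and 0 lower, against 2.16% of all genes higher and 2.56% lower. The groups did not overlap in 21 genes, all higher, against 4.76% of all genes higher and 5.6% lower with separate groups. Positive differences were found in 26 of 27. The median difference was 0.96, against -0.01 over all genes, of which 46.7% were positive. Mesenteric replicate 2 was the lowest of its group in 9 of the 11 genes and replicate 1 the highest in 8. Among peripheral arrays replicate 3 was the highest in 8 and replicate 2 the lowest in 8. The mean of the list was 6.85, 6.44 and 6.72 in mesenteric and 5.44, 5.43 and 5.58 in peripheral replicates 1 to 3, so even mesenteric replicate 2, the dimmest of its group, stood above each peripheral array. Leaving out each of the 6 arrays in turn left between 8 (without mesenteric replicate 1) and 10 calls. Ifit2 lost its call in 5 of these 6 fits (adjusted p up to 0.154, without peripheral replicate 2), Lgals3bp in 3 (up to 0.0764, without peripheral replicate 2) and Rsad2 without mesenteric replicate 1 (0.0614).

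**Figure D2:**
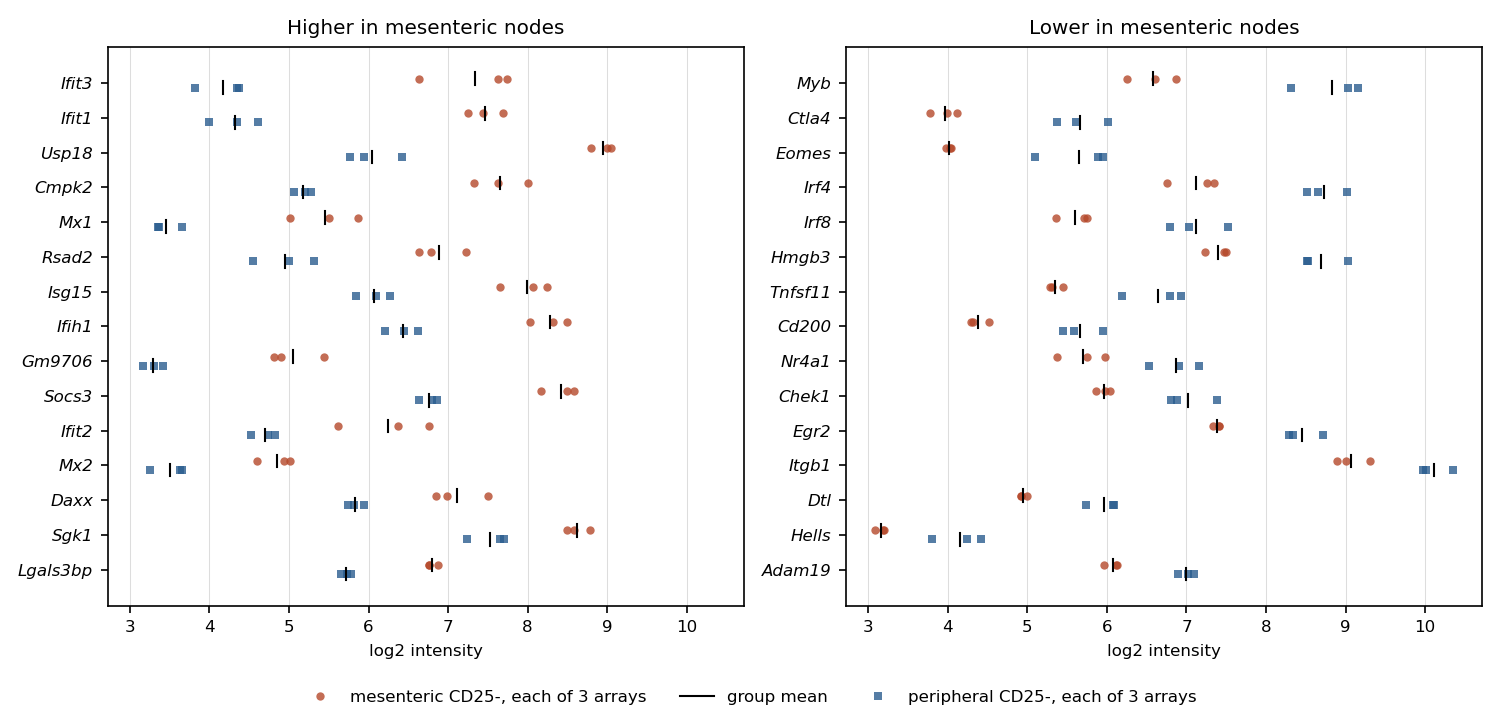
Level of the 15 genes with the largest higher (left) and the 15 with the largest lower (right) difference past the test, as log2 intensity on the horizontal axis, 1 symbol per array for 3 mesenteric (circles) and 3 peripheral (squares) CD25- arrays, with the group mean as a bar. In each of the 30 genes the circles and squares lie apart.

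The promoters of 3 of these effectors are shown because the letters of the interferon response element can be read in them. The sequences are from RefSeq on GRCm38.p6 and hold the 250 bases before the annotated start, on the strand of the gene, outside the gene itself. Capitals mark the core of the element, GAAA and GAAA with any 2 bases between them, or its reverse complement. Ifit1 (chr19:34640639-34640888, plus strand) held 2 matches, both on the opposite strand, that began 104 and 85 bases before the start. Isg15 (chr4:156200819-156201068, minus strand) held 3 overlapping matches, of which the first began 78 and the last 66 bases before the start. Rsad2 (chr12:26456453-26456702, minus strand) held 1 match on the opposite strand, 120 bases before the start.
Ifit1: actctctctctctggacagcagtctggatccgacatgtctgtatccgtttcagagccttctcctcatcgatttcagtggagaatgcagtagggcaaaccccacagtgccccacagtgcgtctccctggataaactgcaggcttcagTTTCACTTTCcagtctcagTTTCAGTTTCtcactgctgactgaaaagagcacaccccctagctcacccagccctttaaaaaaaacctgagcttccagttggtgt
Isg15: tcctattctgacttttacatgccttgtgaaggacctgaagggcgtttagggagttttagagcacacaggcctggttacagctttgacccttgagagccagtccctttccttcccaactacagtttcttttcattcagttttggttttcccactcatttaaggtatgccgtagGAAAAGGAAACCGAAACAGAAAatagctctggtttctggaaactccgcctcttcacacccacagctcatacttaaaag
Rsad2: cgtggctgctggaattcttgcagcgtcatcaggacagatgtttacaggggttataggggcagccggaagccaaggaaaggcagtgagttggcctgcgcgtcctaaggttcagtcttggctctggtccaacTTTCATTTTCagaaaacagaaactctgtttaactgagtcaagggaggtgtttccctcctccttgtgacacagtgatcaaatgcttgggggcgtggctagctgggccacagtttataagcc

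A promoter entry was found for 15 of the 20 higher and 20 of the 22 lower genes. The core, searched on both strands with overlapping matches allowed, occurred in 5 of the 15 higher genes (33.3%): Ifit1, Ifit3, Isg15, Rsad2 and Sgk1. It occurred in 2 of the 20 lower genes (10%), Chek1 and Eomes, in 3.39% of 6572 array genes and in 3.46% of all 27025 entries of the same length. The gamma-activated sequence TTCNNNGAA, the motif of Stat dimers, occurred in 4 of the 15 higher genes (26.7%), 2 of the 20 lower genes (10%) and 7.4% of array genes. Ifit2, Il18r1, Sgk1 and Socs3 were those higher genes. A match describes the letters of a window and no binding was measured here.

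Genes that interferon gamma induces most gave smaller values. A list of immunity-related GTPases, guanylate-binding proteins and antigen processing genes had 18 members measured by probe sets naming 1 gene. Of these, 0 passed limma's test after adjustment. Without adjustment 5 were higher at p under 0.05 and 0 lower, against 2.16% of all genes higher and 2.56% lower. Irgm2, a GTPase that acts on vacuoles of intracellular microbes, read 9.33, 8.81 and 9.50 against 8.17, 8.27 and 8.61, a difference of 0.86 (SE 0.19, adjusted p = 0.102). Igtp differed by 0.79 and Irgm1 by 0.55, while the peptide transporter Tap1 differed by 0.14 and the proteasome subunit Psmb9 by -0.05. In this list 16 of 18 differences were positive and the median was 0.31. Probe set 102906_at, left out for naming several genes, has the list member Tgtp1 among them by gene identifier. It was higher by 1.16 (SE 0.19, adjusted p = 0.00844 by limma), with separate groups.

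Other genes higher in mesenteric cells fell outside these lists of interferon genes. Sgk1, a kinase induced by serum, salt and glucocorticoids, read 8.58, 8.50 and 8.79 against 7.24, 7.65 and 7.70. Every mesenteric array stood above every peripheral one, and the difference was 1.09 (SE 0.20, adjusted p = 0.0208). No other of 19 genes of glucocorticoid response and the circadian clock passed, and Tsc22d3, a glucocorticoid target, differed by 0.00. Daxx, a histone chaperone and death-domain binding protein, was higher by 1.28 (SE 0.19, adjusted p = 0.00504). Gm9706, a predicted gene, was higher by 1.76 (SE 0.26, adjusted p = 0.00559), but by 0.15 and without a call with values raised to intensity 32. Il18r1, a chain of the interleukin-18 receptor, read 6.09, 5.79 and 6.09 against 5.15, 5.22 and 5.10, a difference of 0.83 (SE 0.16, adjusted p = 0.0381). Lrrc8a, a subunit of the volume-regulated anion channel, was higher by 0.71, the predicted gene Gm11346 by 0.63, Azi2, an adaptor of the kinase Tbk1, by 0.57 and the tyrosine kinase Tec by 0.55. A dimmer probe set of Azi2 differed by 0.21 and did not pass. The calls of Il18r1 (adjusted p 0.0547 to 0.223), Sgk1 (0.0482 to 0.126), Lrrc8a (0.0127 to 0.128) and Gm11346 (0.0205 to 0.155) were less stable: leaving out 1 of the 6 arrays ended the call in 6, 5, 4 and 4 of 6 fits. Their highest values arose without mesenteric replicate 1, peripheral replicate 1, and peripheral replicate 2 in the last pair.

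The genes lower in mesenteric cells included transcription factors of activated T cells. Myb, a factor of lymphocyte development and proliferation, read 6.60, 6.25 and 6.87 in mesenteric and 8.32, 9.02 and 9.16 in peripheral replicates 1 to 3. By brightest probe sets this was the widest lower difference of any gene, at -2.26 (SE 0.29, adjusted p = 0.00195), a 4.79-fold lower level. A second, dim probe set of Myb differed by -0.03. Irf4, induced by T cell receptor signals and needed for effector differentiation, read 7.26, 6.75 and 7.34 against 8.66, 9.02 and 8.52, a difference of -1.61 (SE 0.22, adjusted p = 0.00306). Irf8, its closest relative, read 5.71, 5.36 and 5.74 against 6.80, 7.52 and 7.03, a difference of -1.51 (SE 0.21, adjusted p = 0.00366). In both genes mesenteric replicate 2 was the lowest and peripheral replicate 2 the highest array.

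Eomes, a T-box factor of memory and cytotoxic lymphocytes, had a probe set near the bottom of the mesenteric arrays. Its brighter probe set, 93880_at, read 4.04, 4.02 and 3.98 against 5.96, 5.88 and 5.10, a difference of -1.63 (SE 0.19, adjusted p = 0.000688). Probe set 103532_at read 2.56, 2.60 and 2.59 against 5.63, 5.50 and 5.62. The mesenteric values of that probe set lay at the 3.82 percentile of all probe sets and the peripheral ones at the 67.2 percentile, and its difference was -2.999 (SE 0.10, adjusted p = 1.26e-09). Both probe sets kept the groups apart. Because the mesenteric values lay near the bottom of the arrays, the sizes depend on the background: with values raised to intensity 32, the brighter probe set differed by -0.65 and did not pass.

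Immediate targets of receptor signalling and other factors followed. Nr4a1, or Nur77, an orphan nuclear receptor switched on within hours of receptor engagement, read 5.75, 5.38 and 5.98 against 6.53, 6.91 and 7.16, a difference of -1.16 (SE 0.22, adjusted p = 0.0273). Egr2, a zinc finger factor that restrains activated T cells, read 7.41, 7.34 and 7.41 against 8.34, 8.71 and 8.29, a difference of -1.06 (SE 0.19, adjusted p = 0.0195). The groups were separate in both. Gfi1, a transcriptional repressor, differed by -0.91 (SE 0.14, adjusted p = 0.00712). Tgif1, a corepressor of Smad proteins, differed by -0.79 (SE 0.11, adjusted p = 0.00366) and was the only one of 23 TGF-beta and Smad genes to pass.

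Among genes of surface proteins, Ctla4, Cd200, Tnfsf11, Itgb1 and Adam19 were lower. Ctla4, the inhibitory receptor for CD80 and CD86, read 4.12, 3.77 and 3.99 against 5.38, 5.61 and 6.01. The difference was -1.71 (SE 0.17, adjusted p = 0.000249), a 3.27-fold lower level, with separate groups. The mesenteric values were dim, and with values raised to intensity 32 the difference was -0.67 (adjusted p = 0.413). Cd200, a ligand that dampens myeloid cells, read 4.29, 4.32 and 4.52 against 5.59, 5.45 and 5.95, a difference of -1.29 (SE 0.21, adjusted p = 0.00911). Tnfsf11, or RANKL, a cytokine of the tumour necrosis factor family that T cells make on activation, read 5.31, 5.29 and 5.45 against 6.19, 6.93 and 6.80, a difference of -1.29 (SE 0.22, adjusted p = 0.0106). Itgb1, the beta-1 integrin chain of VLA-4 and other matrix receptors, read 8.89, 9.30 and 9.01 against 9.98, 10.35 and 10.01, a difference of -1.05 (SE 0.12, adjusted p = 0.00103). Its other probe set differed by -0.93 (adjusted p = 0.00183). Adam19, a membrane metalloprotease, differed by -0.93 (SE 0.18, adjusted p = 0.0361), and no fit without 1 of the 6 arrays kept its call (adjusted p 0.0845 to 0.201, highest without mesenteric replicate 2).

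Of 32 measured genes of T cell activation and immediate early response, 0 were higher and 5 lower past the test: Irf4, Irf8, Cd200, Nr4a1 and Egr2. Without adjustment 2 were higher and 9 lower at p under 0.05, against 2.16% of all genes higher and 2.56% lower. Other early genes had values of either sign: Fos differed by -0.17, Egr1 by -0.11, Junb by -0.14, Nr4a2 by -0.02 and Jun by 0.06, while Dusp1 differed by -0.87 (adjusted p = 0.105), the surface receptors Tnfrsf4 by -0.27, Tnfrsf9 by -0.01 and Cd5 by -0.01, Rgs2 by 0.54 and Zfp36 by 0.51 (adjusted p = 0.123). Cd83, also in this list, differed by -1.14 (adjusted p = 0.403), and by -0.03 with its dimmer probe set. The median of the list was -0.11, and 10 of 32 differences were positive. Leaving out mesenteric replicate 1 or 2 left 2 calls, and leaving out peripheral replicate 2 or 3 left 3. Nr4a1 (highest adjusted p 0.178, without mesenteric replicate 2), Egr2 (0.15, without peripheral replicate 2) and Cd200 (0.0697, without peripheral replicate 3) lost their calls in 4, 4 and 3 of the 6 fits. Irf4 and Irf8 kept theirs in all 6.

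Further lower genes are known from DNA replication and chromatin, of which Pola1 alone belonged to the cell cycle list used here. Chek1, the checkpoint kinase of stalled replication, read 6.03, 5.98 and 5.86 against 6.80, 7.39 and 6.88, a difference of -1.06 (SE 0.20, adjusted p = 0.029). Dtl, a ubiquitin ligase adaptor that removes the licensing factor Cdt1, read 4.92, 4.92 and 4.998 against 5.73, 6.09 and 6.08, a difference of -1.02 (SE 0.17, adjusted p = 0.00911). Hells, a chromatin remodeller of dividing lymphocytes, differed by -0.999 (SE 0.15, adjusted p = 0.00614) at low levels, with means of 3.16 and 4.15. Pola1, the catalytic subunit of DNA polymerase alpha, differed by -0.88 (SE 0.17, adjusted p = 0.0286). Hmgb3, a chromatin protein of the high mobility group, read 7.48, 7.50 and 7.23 against 8.53, 9.03 and 8.51, a difference of -1.29 (SE 0.18, adjusted p = 0.00346). Mesenteric arrays were close to each other in these genes, and peripheral replicate 1 was the lowest or close to the lowest of its group.

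Pola1 was the only one of 34 measured cell cycle genes past the test, and 0 were higher. Without adjustment 15 were lower and 0 higher at p under 0.05, against 2.56% of all genes lower and 2.16% higher. Of the 34 differences 31 were negative, against 4395 of 8251 over all genes. The median was -0.38, against -0.01 over all genes. Cdc6, which loads the replicative helicase, differed by -1.05 (adjusted p = 0.187), the ribonucleotide reductase subunits Rrm2 and Rrm1 by -0.82 (adjusted p = 0.368) and -0.56 (adjusted p = 0.523), and Cks1b by -0.47 (adjusted p = 0.173). Leaving out any of the 6 arrays but peripheral replicate 1, where 2 passed, left 0 calls in this list (9 to 13 genes at unadjusted p under 0.05 by limma). Pola1 then had an adjusted p of up to 0.187, without peripheral replicate 2. Chek1 lost its call in 5 fits (up to 0.191) and Dtl in 4 (up to 0.0748), both at their highest without peripheral replicate 2.

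The promoter of Dtl (chr1:191575545-191575794, minus strand, RefSeq, GRCm38.p6) is shown because it holds 1 match to an E2F motif, marked in capitals, 8 bases before the start. E2F factors drive genes of the S phase.
Dtl: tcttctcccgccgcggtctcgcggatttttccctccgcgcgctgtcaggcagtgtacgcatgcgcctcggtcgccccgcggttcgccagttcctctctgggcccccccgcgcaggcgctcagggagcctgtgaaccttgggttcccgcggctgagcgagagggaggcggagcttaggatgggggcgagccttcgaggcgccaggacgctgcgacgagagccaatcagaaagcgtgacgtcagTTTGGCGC
The letters TTTCCCGC or TTTGGCGC on either strand occurred in 3 of 20 lower genes (15%), namely Dtl, Hells and Pola1. They occurred in 1 of 15 higher genes (6.67%), Ifit2, and in 2.77% of array genes.

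The last lower genes act in signalling and lipid synthesis. Rgs16, which switches off G proteins, differed by -0.81 (SE 0.13, adjusted p = 0.00683), and its second probe set by -1.41 (adjusted p = 0.0014). Cyth3 and Asap1, which control Arf GTPases, differed by -0.86 (adjusted p = 0.00802) and -0.75 (adjusted p = 0.027). Their other probe sets differed by -0.12 and -0.52, with overlapping groups, and neither passed. Scd2, a desaturase of fatty acids, read 7.60, 7.47 and 7.28 against 8.18, 8.25 and 8.14, a difference of -0.74 (SE 0.12, adjusted p = 0.00911), and -1.13 by its other probe set (adjusted p = 0.00011). No other of 17 genes of sterol and fatty acid synthesis passed. Asap1 lost its call in all 6 fits without 1 array (adjusted p 0.0775 to 0.153), Tnfsf11 in 4 (up to 0.09, without peripheral replicate 2), Cyth3 in 3 (up to 0.0589, without peripheral replicate 3), Scd2 in 2 and Rgs16 in 1 (up to 0.0722 and 0.0538, both without peripheral replicate 2).

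Few homing genes passed the test. Ccr9, the chemokine receptor of cells bound for the small intestine, read 3.65, 3.61 and 3.86 against 3.91, 3.83 and 3.82, a difference of -0.15 (SE 0.10). The groups overlapped. Itgb7, the beta-7 chain of the gut homing integrin, read 8.37, 8.23 and 8.19 against 7.84, 7.76 and 7.94, a difference of 0.41 (SE 0.30, adjusted p = 1) with separate groups. Its partner Itga4 differed by -0.25, and by 0.17 and -0.11 with dimmer probe sets, and none of these passed. Of 17 measured genes of gut homing and retinoic acid response, Il18r1 was higher and Itgb1 lower, 15 did not pass and the median was -0.01. Without adjustment 1 was higher and 1 lower at p under 0.05 by limma, against 2.16% and 2.56% of all genes. Of 12 skin homing genes 0 passed limma's test (1 higher and 3 lower at unadjusted p under 0.05, against 2.16% and 2.56% of all genes). Cxcr3, a receptor of cells sent to inflamed tissue, read 5.43, 5.37 and 5.49 against 6.21, 6.51 and 6.07, a difference of -0.83 (adjusted p = 0.281).

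Of 14 genes of the naive state 10 differences were positive and 4 negative, and none passed by its brightest probe set. Klf2, which keeps T cells in circulation, differed by 0.49 (adjusted p = 0.104), its target S1pr1, the receptor for exit from lymph nodes, by 0.59 (adjusted p = 0.343), and the interleukin-7 receptor Il7r by 0.56. By limma 4 were higher and 0 lower at unadjusted p under 0.05, against 2.16% of all genes higher and 2.56% lower. The transcription factor Ets1 differed by -0.45 and the homing receptor Ccr7 by -0.08. The median of the list was 0.04. Igfbp4, a binding protein for insulin-like growth factors that marks naive cells, differed by 0.30 (adjusted p = 0.573), while a dimmer probe set of it passed at 0.66 (adjusted p = 0.0114). Among 30 memory and effector genes Eomes and Itgb1 were lower and 0 higher. Without adjustment 0 were higher and 5 lower at p under 0.05 by limma, against 2.16% and 2.56% of all genes. Cd44, the adhesion receptor of antigen-experienced cells, differed by -0.43 (adjusted p = 0.283). Among 22 Treg genes Ctla4 alone passed (0 higher and 2 lower at unadjusted p under 0.05 by limma), and Tnfrsf18 differed by -0.34.

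**Figure D3:**
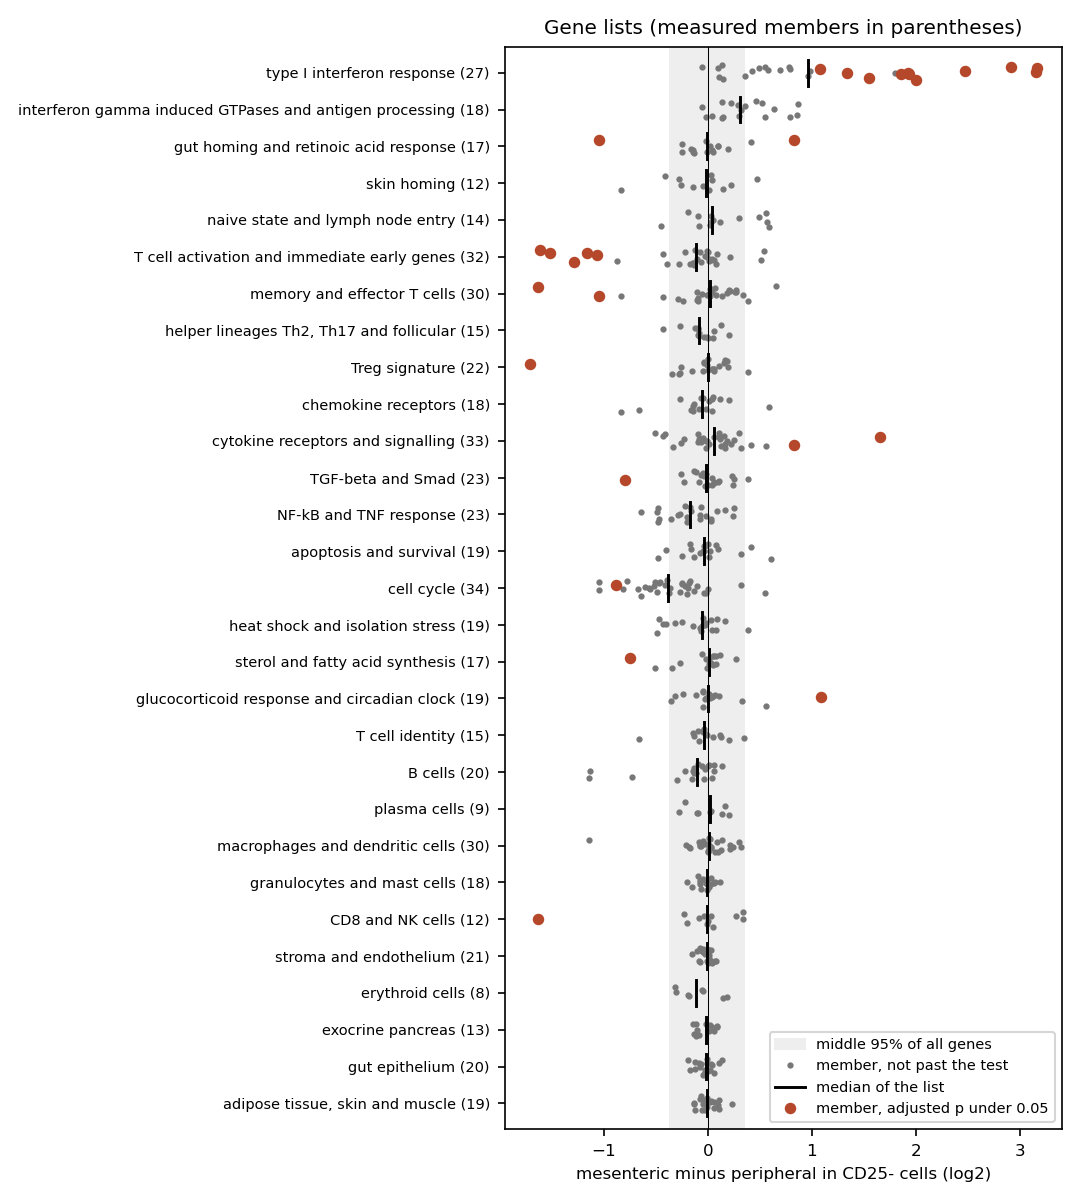
Difference between mesenteric and peripheral CD25- cells (log2) for the measured members of 29 gene lists, 1 point per gene with the list median as a bar; red points passed the test and the grey band holds the middle 95% of all genes. The interferon list lies to the right, with a median of 0.96, and the cell cycle list to the left, with a median of -0.38.

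The labels carry array numbers, and these formed 2 runs, D and E, each with CD25- arrays of both sites. Run D held mesenteric replicates 1 and 2 and peripheral replicates 1 and 3, and run E the other pair. Since the groups of the 42 genes were separate, their direction had to be the same in each run, and only the sizes are of interest. The median difference of the higher genes was 1.56 in run D and 1.43 in run E, and that of the lower genes -0.97 and -1.08. Ifit3 differed by 2.83 in run D and 3.81 in run E, Ifih1 by 1.72 and 2.11, Ctla4 by -1.75 and -1.62, Irf4 by -1.58 and -1.68, and Myb by -2.31 and -2.15. With the run as a block 62 probe sets passed, within run D 28, and within run E, with 1 array per site, 0 (844 at unadjusted p under 0.05 by limma).

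Markers of other cell types were examined because sorted cells can hold a few of them. The T cell list had 15 measured genes, 0 of which passed (0 at unadjusted p under 0.05 by limma in either direction). Cd3e read 8.28, 8.60 and 8.66 against 8.14, 7.97 and 8.38, and Cd4 6.95, 6.89 and 6.84 against 6.75, 6.70 and 6.86. RMA values have no zero, so a low marker can only be set against the lowest levels of the arrays. Of 12 CD8 and NK cell genes Eomes alone passed (0 higher and 2 lower at unadjusted p under 0.05 by limma). The summed intensity of that list was 196 to 199 in mesenteric and 216 to 245 in peripheral arrays, and without Eomes it was 180 to 184 and 175 to 186, which overlapped (a sum taken after the values were seen). Cd8b1, which defines CD8 cells, read 3.66 ± 0.16 and 3.33 ± 0.38 (SD, n = 3). Of 20 B cell genes 0 passed (0 higher and 3 lower at unadjusted p under 0.05 by limma, against 2.16% and 2.56% of all genes). Their sum was 958 to 1052 in mesenteric and 947 to 1535 in peripheral arrays. Cd24a differed by -1.13 (adjusted p = 0.396), Cd83 by -1.14 (adjusted p = 0.403) and Pou2af1, a B cell coactivator, by -0.73 (adjusted p = 0.597), while Pax5, which defines B cells, differed by -0.15. Dimmer probe sets of Cd83 and Pou2af1 differed by -0.03 and 0.05.

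Macrophage and dendritic cell genes summed to 2548 to 2754 in mesenteric and 2219 to 2692 in peripheral arrays, and 0 of 30 passed (1 higher and 1 lower at unadjusted p under 0.05 by limma). The defining receptor Csf1r had means of 4.30 and 4.16. Siglec1, an interferon-induced gene of macrophages, had means of 2.59 and 2.57, near the lowest levels of the arrays, where no difference could be read. The 8 erythroid genes summed to 342 to 556 in mesenteric and 281 to 1579 in peripheral arrays. Peripheral replicate 2 was the array with the highest erythroid and B cell sums, 1579 and 1535, and its part in the results was not tested. Without it 36 probe sets passed, with 9 of 27 interferon, 3 of 32 activation and 0 of 34 cell cycle genes among the calls. Plasma cell, granulocyte, stromal, pancreatic, gut epithelial and skin or muscle lists had 0 members past the test (0 at unadjusted p under 0.05 by limma in each). Their sums overlapped between the sites, for example 482 to 501 in mesenteric and 459 to 519 in peripheral arrays for 20 gut epithelial genes.

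The CD25+ cells of the same sites served as a comparison that shares no array with the CD25- one, although the fit pooled their spread. There 9 probe sets passed (0.0725%), 7 higher (0.0564%) and 2 lower (0.0161%) in mesenteric nodes, while 532 (4.28%) had an unadjusted p under 0.05. In genes these unadjusted shares were 2.44% higher and 1.96% lower. All 9 called probe sets were among the 56 of the CD25- cells. The count was 5, 2 and 21 without peripheral CD25+ replicates 1, 2 and 3. Of the 56, 51 had the same sign in CD25+ cells. Of the 20 higher genes 19 had the same sign in CD25+ cells and 7 passed there, which were all the genes that passed (0.0848%), and the median difference was 1.60 in CD25- and 0.90 in CD25+ cells. Ifit1 read 7.46 ± 0.24 (SD, n = 5) in mesenteric and 4.93 ± 0.79 (n = 3) in peripheral CD25+ cells, a difference of 2.53 (SE 0.27, adjusted p = 0.00272). Isg15 differed by 1.83 (SE 0.26, adjusted p = 0.0117) there, close to the 1.92 of CD25- cells. Of the 27 interferon genes 6 passed in CD25+ cells, 26 were positive, and the median was 0.65.

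Of the 22 lower genes 18 had the same sign in CD25+ cells and 0 passed limma's test there, where 162 of 8251 genes were lower at unadjusted p under 0.05. Their median was -1.05 in CD25- and -0.14 in CD25+ cells. Ctla4 read 6.94 ± 0.25 (SD, n = 5) in mesenteric and 7.07 ± 0.08 (n = 3) in peripheral CD25+ cells, both above the CD25- cells, a difference of -0.13 (SE 0.15). Irf4 differed by -0.06 (SE 0.20), Nr4a1 by -0.01 (SE 0.19) and Tnfsf11 by 0.13 (SE 0.19). These gene counts use the brightest probe set of each gene, and both lower probe sets that passed in CD25+ cells were other ones, of Scd2 and Eomes. The brightest probe set of Scd2 differed by -0.74 in CD25- and by -0.60 (SE 0.11, adjusted p = 0.0732) in CD25+ cells. Its other probe set differed by -1.13 and -0.64 (SE 0.09, adjusted p = 0.0117), so Scd2 was lower in mesenteric CD25+ cells by 1 of its probe sets.

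The test of the difference between both site effects was the interaction of site and sort. It called 1 of 12422 probe sets (0.00805%), probe set 103532_at of Eomes, whose site difference was -2.999 in CD25- and -0.68 (SE 0.09, adjusted p = 0.0117) in CD25+ cells. The interaction was -2.32 (SE 0.14, adjusted p = 1.93e-06). Mesenteric means of this probe set were 2.58 and 2.48, close to the lowest levels of the arrays, so these sizes are set by the background there. The peripheral means were 5.58 ± 0.07 in CD25- and 3.16 ± 0.23 in CD25+ cells (SD, n = 3 each). With values raised to intensity 32 the probe set was still among the 3 interaction calls. That setting gave all arrays outside the peripheral CD25- group the same value for this probe set. It took away their spread, so the kept call is no support. With brightest probe sets 0 of 8251 genes passed (382 probe sets, 3.08%, at unadjusted p under 0.05 by limma, and 1.22% of genes higher and 2.19% lower). At unadjusted p under 0.05 the interaction was met by 11 of the 20 higher and 20 of the 22 lower genes, which had been chosen on their CD25- values, so these counts describe and do not test. Ctla4 had an interaction of -1.57 (SE 0.23, adjusted p = 0.0564), Sgk1 of 1.31 (SE 0.26, adjusted p = 0.322), Cmpk2 of 1.36 (SE 0.32, adjusted p = 0.477) and Gfi1 of -1.005 (SE 0.19, adjusted p = 0.322). None of these 4 passed, which does not show equal site effects.

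**Figure D4:**
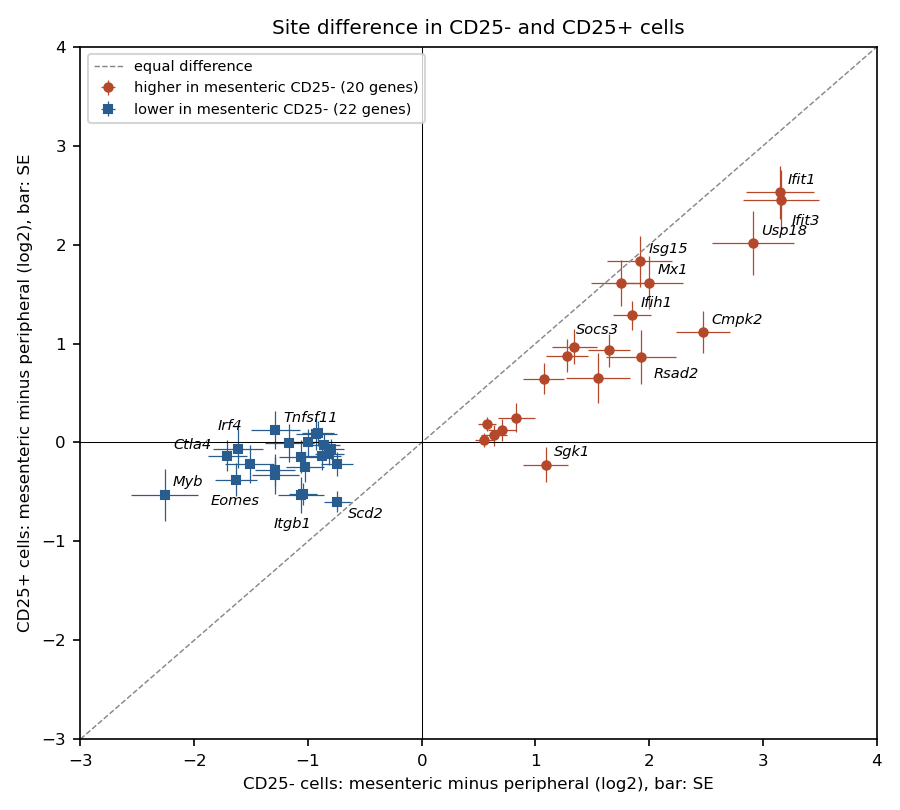
Site difference in CD25- cells (log2, horizontal) against that in CD25+ cells (log2, vertical) for the 42 genes past the test in CD25- cells, with bars of 1 SE and a dashed line of equal differences. Interferon genes lie along the upper right, Isg15 close to the line (1.92 and 1.83), and the 22 lower genes lie left of the line, with CD25+ values near 0 for Irf4 (-0.06) and Ctla4 (-0.13).

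Means of the gene lists put the arrays side by side. The interferon list averaged 6.44 to 6.85 in mesenteric CD25-, 6.44 to 6.71 in mesenteric CD25+, 5.43 to 5.58 in peripheral CD25- and 5.46 to 6.05 in peripheral CD25+ arrays. All 8 mesenteric arrays stood above all 6 peripheral ones, and peripheral CD25+ replicate 3 was the highest of the latter. The activation list averaged 5.71 to 5.96 in mesenteric and 6.09 to 6.17 in peripheral CD25- arrays, with no overlap, and 5.92 to 6.06 and 5.88 to 6.02 in CD25+ arrays, where the groups overlapped. The cell cycle list averaged 5.69 to 5.86 in mesenteric and 5.96 to 6.31 in peripheral CD25- arrays. In CD25+ arrays it averaged 5.75 to 6.15 and 5.93 to 6.37, with overlap.

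**Figure D5:**
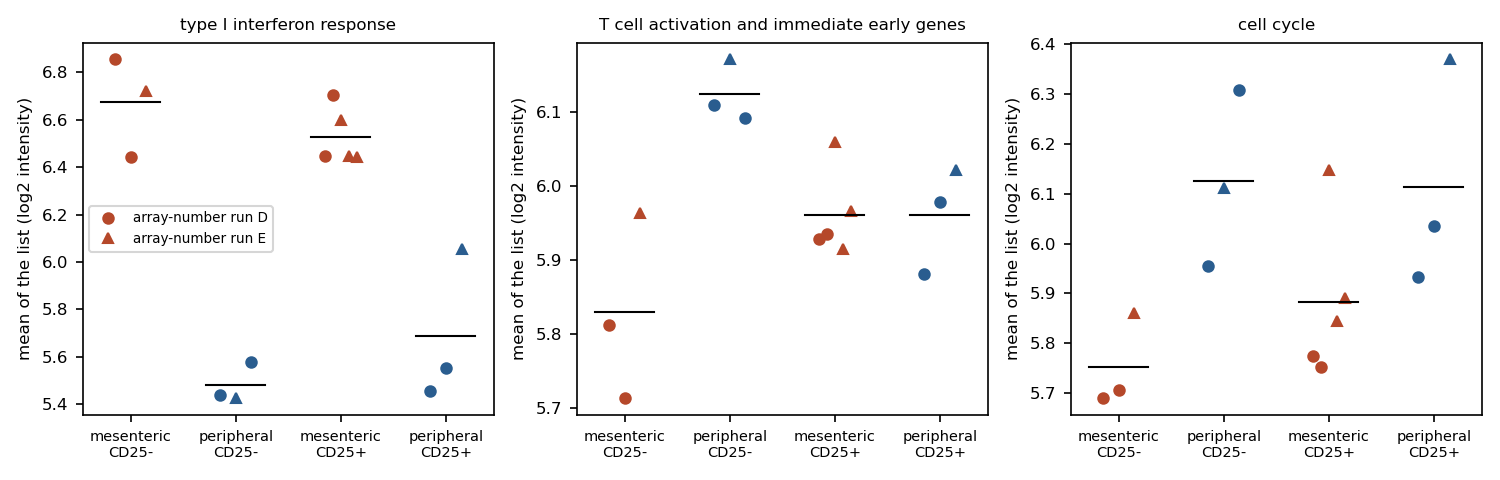
Mean log2 intensity of 3 gene lists in each of 14 lymph node arrays, by site and sort, with the group mean as a bar; circles and triangles are arrays of runs D and E, and colours the sites. All mesenteric arrays lie above all peripheral ones for the interferon list, and for the activation list the CD25- arrays lie at 5.71 to 5.96 and 6.09 to 6.17.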

How the data were processed

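Per the labels, RNA of sorted T cells was labelled with biotin and hybridized to 1-colour arrays. The authors deposited 1 linear intensity per probe set and array, and the submitters' processing notes name RMA, without a version. Log2 of the deposited intensities was taken here. Of 12488 probe sets, 66 controls were left out. Of the other 12422, 10833 named 1 gene symbol, 396 several and 1193 none. Of 8251 genes 8237 matched the RefSeq table. Control probe sets correlated with those of pancreatic arrays by 0.254 as stored and 0.952 with names sorted capitals first, and the sorted order was used for 3'/5' ratios.

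limma 3.58.1 in R 4.3.3 (lmFit, eBayes, two-sided) fitted 14 lymph node arrays in 4 groups, without covariates, leaving 10 residual and 3.72 prior degrees of freedom. The number of arrays limits the precision. A gene is its probe set with the highest mean. Named are the 15 genes of each direction with the largest difference past the threshold and separate groups, list members past the threshold, up to 4 further members per list of lowest p, the 5 genes per direction of lowest interaction p, and the brightest markers; other genes given with a difference alone, and Il2ra, were chosen after their values were seen. The members and the 29 lists were chosen with earlier results of these data known, so no list is independent evidence. Scripts were tested on simulated data. Alternatives changed the samples fitted, normalization, dim filter, variance model, block, covariate and each replicate in turn.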

Additional observations from a re-analysis of the deposited data

Results flagged for a closer look

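Irf4 in mesenteric CD25+ replicate 3 read 7.845, apart from the other 4 arrays of that group at 6.92 to 7.15, a gap of 0.751 of the group's range against Dixon's limit of 0.71. Of that group 10 genes were examined in this way, and chance sets about 1 in 20 groups apart. Without this array 68 probe sets passed in CD25- cells, through the shared spread.

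Probe set 103532_at of Eomes had a site effect that differed between the sorts by -2.324 (SE 0.14, adjusted p = 1.93e-06 by limma). Its values were 2.56 to 2.60 in mesenteric and 5.50 to 5.63 in peripheral CD25- arrays, and 2.39 to 2.56 and 2.90 to 3.31 in CD25+ arrays. The brighter probe set of Eomes gave an interaction of -1.26 (SE 0.25, adjusted p = 0.322). Mesenteric values of both sorts lay near the lowest levels of the arrays, so the size of the effect depends on the background.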

How the results depend on the processing

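In CD25- cells 56 probe sets passed. The count was 32 with a floor at intensity 32, 28 within run D, 0 within run E (1 array per site, 844 at unadjusted p under 0.05 by limma), and 36 to 68 when 1 array was left out (36 without peripheral CD25- replicate 2). In CD25+ cells 9 passed, with 3 when only the groups compared were fitted, 3 with the floor, 305 with array weights, 0 within run E (393 unadjusted by limma), 5 with the actin ratio as covariate, and 2 to 21 when 1 array was left out (5, 2 and 21 without peripheral CD25+ replicates 1, 2 and 3). The interaction called 1, with 0 among probe sets above the median level (172 unadjusted by limma), 3 with the floor, 2 with trend and robust options, 12 with array weights, 0 within run E (429 unadjusted by limma) and 1 to 2 when 1 array was left out. The cause of these shifts was not tested. With the replicate number as a block 65, 12 and 2 probe sets passed. The numbers share no stated source, and same-numbered CD25- arrays correlated by 0.0706, 0.0283 and 0.508 in their deviations, so they were not taken as pairs; only replicate 3 of the mesenteric arrays correlated best with its own number.

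With separate groups, leaving out arrays or splitting by run could not turn a called gene's direction. Of the 42 genes, 23 kept the call in all 6 fits without 1 CD25- array, 21 with the floor and 17 within run D. Dim signal limits Hells, Tgif1 and Gm11346, whose difference was 0 under the floor, Mx2 (0.01), Gm9706 (0.15), Mx1 (0.46), Eomes (-0.65) and Ctla4 (-0.67), which all lost the call there. The actin difference was -0.03 to 0.16 when 1 array was left out.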

Other observations

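Several called probe sets carried no gene name or several. Those naming several genes were not counted in the lists. By gene identifiers, 102906_at covers Tgtp1, 93321_at covers Ifi203 of the type I interferon list, and 96912_s_at covers Ctla2a and Ctla2b. Their differences were 1.16 (adjusted p = 0.00844 by limma), 0.95 (0.00504) and -1.65 (0.000806), with separate groups. In CD25+ cells they were 0.44, 0.27 and -0.20. Probe set 93078_at, with no gene named here, read 12.18, 12.06 and 12.12 in mesenteric against 10.40, 10.21 and 10.97 in peripheral CD25- arrays, a difference of 1.60 (SE 0.21, adjusted p = 0.00183 by limma). Its CD25+ difference was 0.63. Probe set 93568_i_at read 4.72, 4.18 and 4.97 against 7.22, 7.61 and 7.90, a difference of -2.95 (SE 0.45, adjusted p = 0.00631), and 93569_f_at differed by -2.55 (SE 0.39, adjusted p = 0.00631). In CD25+ arrays 93568_i_at ranged from 5.01 to 7.11 in mesenteric and from 5.57 to 6.92 in peripheral nodes, with overlap.

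Genes of NF-kB and the tumour necrosis factor response gave 17 negative values among 23, with a median of -0.17 and 0 past limma's test. At unadjusted p under 0.05 by limma 1 was higher and 4 lower, against 2.16% of all genes higher and 2.56% lower. The noncanonical subunit Nfkb2 differed by -0.47 (adjusted p = 0.728) and the receptor Tnfrsf1b by -0.47 (adjusted p = 0.735). Among 19 survival genes 0 passed (1 higher and 1 lower unadjusted by limma): the antiapoptotic Bcl2l1 differed by -0.48 (adjusted p = 0.19) and the initiator caspase Casp8 by 0.61 (adjusted p = 0.363). Among 19 heat shock genes 0 passed (0 higher and 3 lower unadjusted by limma), and the mitochondrial chaperonin Hspd1 differed by -0.47 (adjusted p = 0.668). Among 33 cytokine receptor and signalling genes, Socs3 and Il18r1 were higher and 31 did not pass (3 higher and 2 lower unadjusted by limma). Among 15 helper lineage genes 0 passed (0 unadjusted by limma), and Bcl6 differed by -0.43. Among 18 chemokine receptors 0 passed (1 higher and 2 lower unadjusted by limma), and the prostaglandin receptor Ptger4, kept in that list, differed by -0.66 (adjusted p = 0.499).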
